A study of Mus musculus with 15 samples.

Results

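The transcripts of 7 genes were followed across single proximal tubules and whole kidney of the mouse: Ppara, which encodes the nuclear receptor PPARA, and Angptl4, Pdk4, Ucp2, Vnn1, Acot1 and Plin2, which are known as genes that PPARA or fasting raises. The 7 were taken by symbol from a table of 47069 genes. They had been chosen by their levels in these libraries, with the differences between the tubule sets in view, so what separates the tubule sets below is a description and carries no test. The table held 15 RNA-Seq libraries, and the mice were C57BL/6 males, 2 months old. Single microdissected proximal tubules labelled PTS2 gave 12 libraries, which the labels divide into m1, m2 and m3 (3 sets of 4), and whole kidney gave 3. No gene was altered and no treatment was named for any group, and the feeding state of the mice and the meaning of the letter m are not given in the sources used here. Values were TPM, abundances scaled to transcript length and to a total that is the same for each library. TPM keep no record of how many reads were counted, so the depth is unknown. The labels do not say which libraries came from separate mice, so p-values measure the spread between these libraries, which may in part be technical.

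In liver, PPARA binds fatty acids, pairs with the retinoid X receptors and switches on genes of fatty acid uptake, oxidation and ketone body formation, above all when fasting floods the tissue with fatty acids. The proximal tubule is likewise a tissue that burns fatty acids and carries PPARA. The 6 other genes act at different points of this programme: Angptl4 is a secreted inhibitor of lipoprotein lipase, Plin2 coats lipid droplets, Acot1 splits cytosolic acyl-CoA, Pdk4 shuts pyruvate out of oxidation by phosphorylating pyruvate dehydrogenase, Ucp2 is a carrier of the inner mitochondrial membrane, and Vnn1 is an ectoenzyme that splits pantetheine into pantothenate and cysteamine.

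Both kinds of library were checked against marker genes. The summed level of 8 proximal tubule markers lay between 13149 and 19013 TPM in PTS2 and between 10909 and 12047 TPM in whole kidney. A large part of that sum was Slc27a2, at 6904 to 11041 TPM in PTS2 and 4363 to 5131 TPM in whole kidney. The higher sum in PTS2 leaned on this gene, which is also on the PPARA target list used below. The markers did not all run that way: the glucose transporter Slc5a2 was at most 1.38 TPM in PTS2 against 590 to 655 TPM in whole kidney, and Slc5a12 at most 0.23 TPM against 108 to 125 TPM. Genes at 1 TPM or more numbered 10983 to 11511 in PTS2 and 13236 to 13328 in whole kidney. Replicate 3 of set m3 carried 1441 TPM of the 5 thick ascending limb markers, the other PTS2 libraries at most 55.8 TPM, and whole kidney 2425 to 2723 TPM. Among the other cell types, 6 macrophage markers summed to 62.3 to 141 TPM in PTS2 and 404 to 509 TPM in whole kidney, and 6 endothelial markers to 11.2 to 41.3 TPM and 149 to 156 TPM. The 6 adipocyte markers summed to 2.96 to 16.7 TPM in PTS2, with Adipoq at 0 in all 12 libraries, and to 55.7 to 154 TPM in whole kidney.

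The start regions of members that were lowest in set m3 and of one that was level are shown side by side, because the letters that PPARA and other fasting factors are known to bind can be looked for in them. RefSeq (GRCm38.p6) gave a promoter of 300 bases, from 250 before to 50 after the start, for 5 of the 7 members, and none in the table used here for Angptl4 and Vnn1. Those of Ucp2 (chr7:100493108-100493407, plus strand), Pdk4 (chr6:5496229-5496528, minus strand), Acot1 (chr12:84009252-84009551, plus strand) and Plin2 (chr4:86670010-86670309, minus strand) read 5′ to 3′ as follows, with every match to a searched motif in capitals.
Ucp2: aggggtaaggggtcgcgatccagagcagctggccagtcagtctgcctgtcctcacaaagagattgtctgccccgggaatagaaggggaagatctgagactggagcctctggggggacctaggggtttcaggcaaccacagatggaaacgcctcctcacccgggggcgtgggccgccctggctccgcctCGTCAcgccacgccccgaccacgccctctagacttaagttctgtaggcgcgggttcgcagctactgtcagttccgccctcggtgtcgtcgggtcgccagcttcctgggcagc
Pdk4: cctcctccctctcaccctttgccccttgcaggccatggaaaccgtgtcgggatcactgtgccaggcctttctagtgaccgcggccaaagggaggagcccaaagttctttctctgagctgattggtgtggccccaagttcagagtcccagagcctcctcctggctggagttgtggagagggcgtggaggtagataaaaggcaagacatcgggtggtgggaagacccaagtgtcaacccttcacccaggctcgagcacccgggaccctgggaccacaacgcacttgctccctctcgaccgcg
Acot1: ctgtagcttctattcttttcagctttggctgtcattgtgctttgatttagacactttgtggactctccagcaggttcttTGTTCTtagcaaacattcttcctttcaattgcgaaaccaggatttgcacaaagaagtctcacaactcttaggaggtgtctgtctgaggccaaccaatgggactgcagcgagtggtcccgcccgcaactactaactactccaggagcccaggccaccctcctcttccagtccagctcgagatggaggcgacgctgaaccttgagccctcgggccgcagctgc
Plin2: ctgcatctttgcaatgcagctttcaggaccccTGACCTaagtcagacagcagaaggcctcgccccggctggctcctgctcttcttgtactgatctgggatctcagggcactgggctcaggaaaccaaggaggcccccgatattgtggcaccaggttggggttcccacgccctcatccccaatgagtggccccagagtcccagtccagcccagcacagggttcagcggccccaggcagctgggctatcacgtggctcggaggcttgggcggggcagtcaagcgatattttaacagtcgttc
The motifs, searched on both strands, were the PPARA and RXR element of directly repeated half-sites (AGGTCA repeated directly after a spacer N), its half-site (AGGTCA), a forkhead motif (TGTTTAC), a steroid receptor half-site (TGTTCT) and a cAMP response half-site (TGACG). The full element was in none of the 5 member promoters and in 0.0396% of the 32851 promoters searched. Exact matches to these letters are thus rare in windows of this length. Matches with altered letters or outside the windows were not searched, so nothing about PPARA binding is read from this absence. Plin2, whose level hardly moved between sets, held the single half-site, on the minus strand at position -218 from the start, and 16.3% of all promoters hold one. Among the members lowest in m3, the Ucp2 promoter held a cAMP response half-site on the minus strand at position -62 (in 20.8% of all promoters), the Acot1 promoter a steroid receptor half-site at -171 (in 19.0%), and the Pdk4 promoter none of the 5. The Ppara promoter held a cAMP response half-site at -222 and was the richest of the 5 in G and C, at 74.7% against a median of 52.7% over all promoters. No motif was shared by Ucp2, Acot1 and Pdk4.

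Ppara (ENSMUSG00000022383, chr15:85734983-85802819 on GRCm38, plus strand, 8 exons), the receptor itself, was present in each library and did not separate the sets. It was at 43.68, 26.55, 36.03 and 50.24 TPM in the libraries 1 to 4 of m1, at 38.04, 35.92, 31.85 and 43.92 TPM in m2, at 33.34, 25.67, 32.19 and 46.78 TPM in m3, and at 49.91, 57.65 and 71.71 TPM in whole kidney. The sets overlapped throughout, with means of 39.1 ± 10.2, 37.4 ± 5.03 and 34.5 ± 8.86 TPM (SD, n = 4 each), and m2 stood at 1.09 times m3. Whole kidney was higher, at 59.8 ± 11.05 TPM (SD, n = 3) against 37.02 ± 7.79 TPM (SD, n = 12), although the highest PTS2 library, replicate 4 of m1, exceeded the lowest kidney library.

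Angptl4 (ENSMUSG00000002289, chr17:33773750-33781830, minus strand, 7 exons), the lipase inhibitor, ranked m2 over m1 over m3 with no overlap between any of the sets. Its libraries read 165.81, 119.16, 129.77 and 115.42 TPM in m1, 181.61, 186.45, 172.14 and 188.81 TPM in m2, and 60.34, 51.35, 53.51 and 52.55 TPM in m3. The set means were 132.5 ± 23.0, 182.3 ± 7.38 and 54.4 ± 4.03 TPM (SD, n = 4 each), so that m2 was 3.35 times m3. In the kidney libraries Angptl4 spread more than any other member, at 75.61, 25.41 and 40.33 TPM, a 2.98-fold range that spanned the whole of set m3.

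Ucp2 (ENSMUSG00000033685, chr7:100493337-100502020, plus strand, 8 exons), the mitochondrial carrier, had the widest range of the 7. It was at 293.69, 312.09, 177.67 and 129.17 TPM in m1, at 387.44, 364.85, 322.09 and 307.20 TPM in m2, at 52.53, 80.71, 61.39 and 50.38 TPM in m3, and at 180.02, 122.31 and 145.86 TPM in whole kidney. Each m3 library was below each library of m1, of m2 and of whole kidney, and the mean of m2 (345 ± 37.2 TPM) was 5.64 times that of m3 (61.3 ± 13.8 TPM, SD, n = 4 each). Within m1 the libraries split, with replicates 1 and 2 near the level of m2 and replicates 3 and 4 within the kidney range.

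Vnn1 (ENSMUSG00000037440, chr10:23894688-23905343, plus strand, 7 exons), the pantetheinase, followed the same order with tighter libraries. The values were 208.71, 171.83, 166.43 and 159.92 TPM in m1, 236.30, 240.44, 213.12 and 223.26 TPM in m2, and 137.75, 132.97, 114.27 and 125.52 TPM in m3. The 3 sets did not overlap, and m2 was 1.79 times m3. All PTS2 libraries were above the kidney libraries, which read 103.04, 71.39 and 99.03 TPM.

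Acot1 (ENSMUSG00000072949, chr12:84009490-84018371, plus strand, 3 exons), the cytosolic thioesterase, stood at 199.90, 193.01, 168.30 and 125.03 TPM in m1, 220.95, 218.71, 193.36 and 192.26 TPM in m2, and 140.28, 144.11, 129.45 and 92.08 TPM in m3. Set m2 lay above m3 without overlap and m1 overlapped both, while the kidney libraries, at 71.58, 53.96 and 53.53 TPM, were below all tubules. Acot1 has near-identical neighbours: 19.2% of the 50-base windows of its transcripts also occur in transcripts of other genes, Acot2 foremost (13.6%), so that reads could be split between them. Acot2 itself was at 4.43 TPM in the tubules and 4.55 TPM in kidney, and Acot3, another window-sharing gene, at 8.12 and 8.51 TPM.

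Pdk4 (ENSMUSG00000019577, chr6:5483351-5496309, minus strand, 11 exons), the pyruvate dehydrogenase kinase of fasting, was the least abundant member. It was at 15.27, 9.76, 8.00 and 6.17 TPM in m1, at 18.42, 19.01, 13.03 and 16.09 TPM in m2, at 5.65, 5.14, 7.60 and 6.06 TPM in m3, and at 12.68, 7.97 and 10.11 TPM in whole kidney. Sets m2 and m3 did not overlap, and the ratio of their means was 2.72, whereas m1 overlapped both. The kidney libraries lay within the range of the tubules.

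Plin2 (ENSMUSG00000028494, chr4:86648386-86670060, minus strand, 8 exons), the lipid droplet coat protein, was the steadiest member. It was at 167.09, 148.22, 152.59 and 153.26 TPM in m1, at 157.99, 151.69, 145.38 and 155.93 TPM in m2, and at 144.07, 144.93, 145.38 and 153.19 TPM in m3. All 3 sets overlapped, m2 was 1.04 times m3, and the coefficient of variation over the 12 tubules was 4.43%, against 24.5% for Acot1, 25.5% for Vnn1, 45.8% for Angptl4, 48.1% for Pdk4 and 62.4% for Ucp2. The kidney libraries were all lower, at 117.69, 98.24 and 93.49 TPM.

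**Figure D1:**
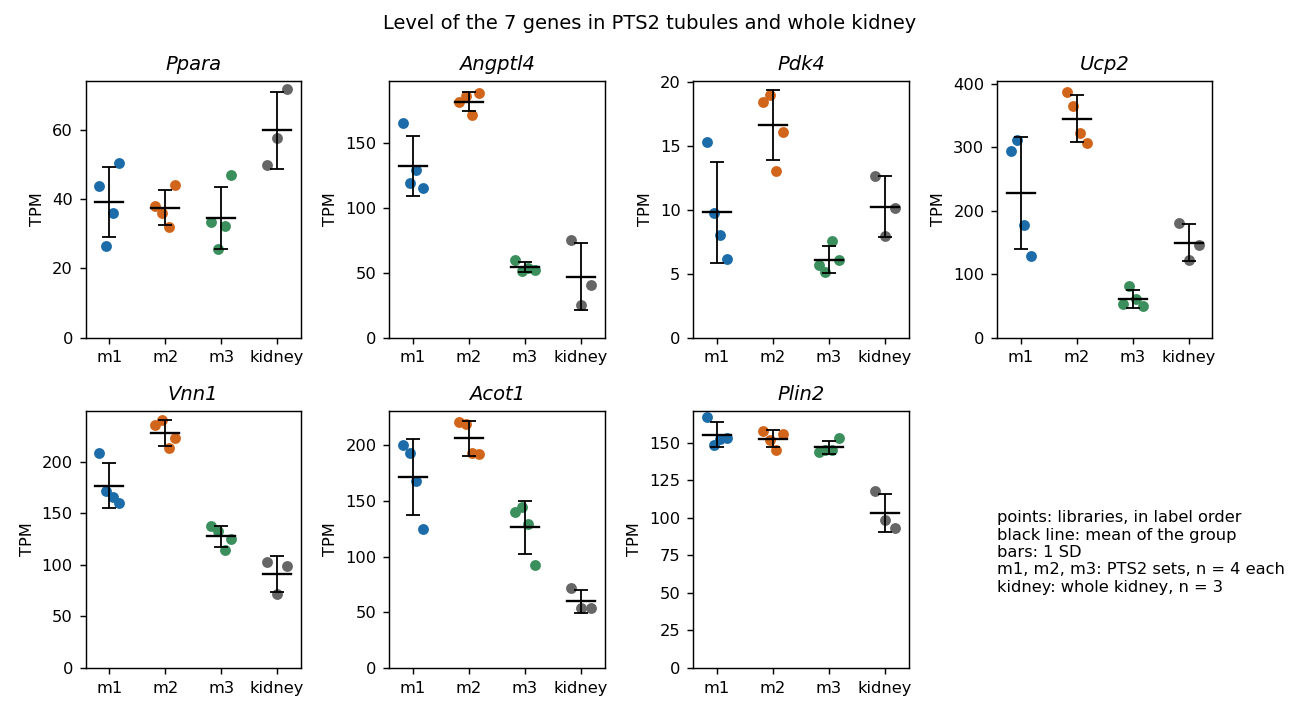
TPM of each of the 7 genes (linear axes from 0) in the PTS2 sets m1, m2 and m3 (n = 4 each) and whole kidney (n = 3); each point is a library, the black line is the group mean and the bars are 1 SD. Angptl4, Pdk4, Ucp2, Vnn1 and Acot1 are highest in m2 and lowest among the sets in m3, whereas Ppara and Plin2 are nearly level across the sets.

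The label of the 7 as PPARA and fasting genes therefore covered 5 with the same order of the sets and 2 that were nearly level. Angptl4, Pdk4, Ucp2, Vnn1 and Acot1 all ranked m2 over m1 over m3 by their means, and each m3 library was below each m2 library, as for 2.99% of all genes tested. Against m1, m3 was lower without overlap for Angptl4, Ucp2 and Vnn1 (2.67% of all genes), and m2 was higher than m1 without overlap for Angptl4 and Vnn1 (2.81% of all genes). Since the members were picked with such differences in view, nothing is read from these shares. The 3 comparisons share libraries pairwise. Without replicate 3 of m3, the library with thick ascending limb markers, or any other single library, the log2 difference between m3 and m2 stayed between -2.63 and -2.41 for Ucp2, between -1.78 and -1.70 for Angptl4 and between -1.41 and -1.24 for Pdk4.

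Levels of other cell types were compared beside this pattern. Macrophage markers summed to 62.3 to 87.7 TPM in m1, 85.1 to 118 TPM in m2 and 71.3 to 141 TPM in m3, endothelial markers to 13.9 to 23.9, 11.2 to 21.3 and 12.0 to 41.3 TPM, and adipocyte markers to 5.99 to 12.3, 5.40 to 11.2 and 2.96 to 16.7 TPM. The ranges of m2 and m3 overlapped for all 3 lists, and their part in the order of the 5 members was not tested.

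PTS2 tubules and whole kidney were then compared with limma on log2(TPM + 1), a scale that understates changes of low genes, and a gene was called at an adjusted p under 0.05. Acot1, Vnn1, Plin2 and Angptl4 were higher in the tubules and Ppara was lower, while no difference was detected for Ucp2 and Pdk4. Of all 12039 genes tested, 46.9% were called, 8.69% higher and 38.2% lower in PTS2. The members were chosen by their levels in these libraries, so nothing is read from 4 of 7 called higher and 1 lower. For the same reason, the p-values of the members in this comparison are a description and not independent evidence of a difference. A lower value in these bulk samples can mean fewer cells that hold the transcript or less of it per cell, which cannot be told apart.

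Acot1 differed most, at 168 ± 41.2 TPM in the tubules (SD, n = 12) and 59.7 ± 10.3 TPM in kidney (SD, n = 3), a ratio of 2.82 and a log2 difference of 1.45 ± 0.22 (SE; adjusted p = 5.44e-05 in limma). Vnn1 averaged 178 ± 45.2 and 91.2 ± 17.2 TPM, apart by 0.93 ± 0.21 on the log2 scale (SE; adjusted p = 0.00200 in limma). Plin2 was at 152 ± 6.71 and 103 ± 12.8 TPM, a smaller but more even difference of 0.56 ± 0.07 on the log2 scale (SE; adjusted p = 8.66e-06 in limma). For these 3 genes all 12 tubules were above all 3 kidney libraries, as was the case for 5.76% of all genes tested. Nothing is read from this share, given how the members were chosen.

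Angptl4 was at 123 ± 56.4 TPM in the tubules and 47.1 ± 25.8 TPM in kidney, with a log2 difference of 1.33 ± 0.45 (SE; adjusted p = 0.0218 in limma). The libraries overlapped, because set m3 (54.4 TPM) stood close to the kidney mean and only m1 and m2 were above every kidney library. The call was lost without kidney replicate 2 (0.97, limma adjusted p = 0.131), without kidney replicate 3 (limma adjusted p = 0.0642) and with one mean per set (limma adjusted p = 0.0579). For Ucp2 the sets lay on both sides of whole kidney (149 ± 29.0 TPM), with m2 above it at 345 TPM and m3 below it at 61.3 TPM, and the difference over all 12 tubules was 0.16 ± 0.61 on the log2 scale (SE; adjusted p = 0.848 in limma). Pdk4 was likewise on both sides, with 16.6 ± 2.72 TPM in m2, 10.25 ± 2.36 TPM in whole kidney and 6.11 ± 1.06 TPM in m3, and a difference of -0.03 ± 0.36 (SE; adjusted p = 0.946 in limma), whose sign changed with the scaling.

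Ppara was lower in PTS2 by a log2 difference of -0.69 ± 0.20 (SE; adjusted p = 0.00966 in limma), a ratio of 0.619. Over all genes tested the median log2 difference was -0.27. With median-of-ratios rescaling, which moved that median to -0.03, Ppara was at -0.43 (limma adjusted p = 0.0711), and without kidney replicate 3, its highest kidney library, it was at -0.55 (limma adjusted p = 0.0619). The 4 members called higher stayed higher under each scaling tried.

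**Figure D2:**
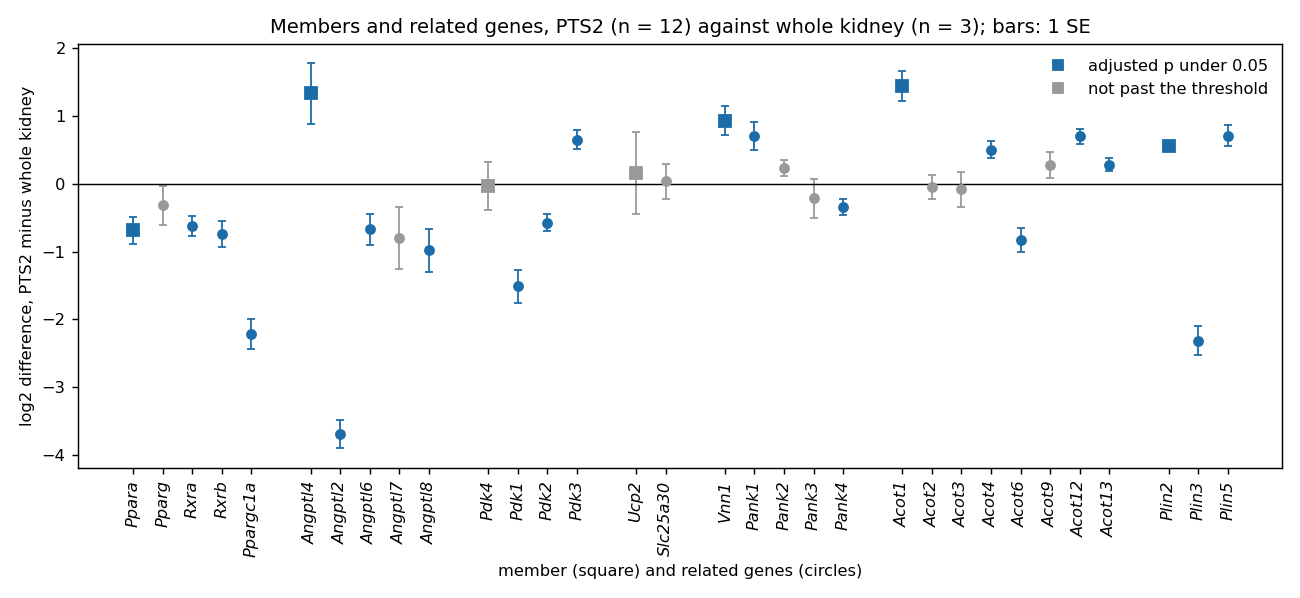
Log2 difference in log2(TPM + 1) between PTS2 (n = 12) and whole kidney (n = 3), with bars of 1 SE, for each member (squares) and for related genes (circles); blue marks an adjusted p under 0.05 in limma and grey the rest. Acot1, Angptl4, Vnn1 and Plin2 lie above 0 and Ppara below, while related genes such as Plin3, Pdk1 and Angptl2 lie below 0.

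The kidney libraries differed among themselves along the same genes. Kidney 1 was the highest of the 3 for all 6 members other than Ppara and the lowest for Ppara, and kidney 2 was the lowest for Angptl4, Pdk4, Ucp2 and Vnn1. Between the highest and the lowest kidney library the members differed by 1.26-fold (Plin2) to 2.98-fold (Angptl4). Kidney 3 also carried the most adipocyte marker signal, 154 TPM, with Adipoq, the adiponectin gene, at 5.14 TPM and Cfd, adipsin, at 46.3 TPM, and its part in the kidney values was not tested. With 3 libraries these differences have no replicate of their own.

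The relatives of the members placed each in its family, where levels per length can be compared between genes. Of the pyruvate dehydrogenase kinases, Pdk2 was the main form in PTS2, at 178 TPM (264 TPM in whole kidney), followed by Pdk3 at 132 TPM (83.0 TPM in whole kidney), while Pdk4 averaged 10.85 ± 5.22 TPM and Pdk1 3.58 TPM. Pdk2 was lower in PTS2 (log2 difference -0.57 ± 0.12, adjusted p = 0.00118 in limma) and Pdk3 higher (0.65 ± 0.14, adjusted p = 0.00138 in limma). Pdk1, Pdk2 and Pdk3 did not pass the test in any comparison of the sets.

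Of Ucp1, Ucp2 and Ucp3, Ucp2 was the abundant one, since Ucp1 and Ucp3 averaged 0.0208 and 0.0367 TPM in PTS2 against 212 ± 132 TPM for Ucp2 (SD, n = 12). Ucp1, the form of brown fat, was at 4.34 TPM in 1 kidney library and listed at 0 in the other two. Among the lipid droplet coats, Plin2 (152 TPM) exceeded Plin3 (11.6 TPM) and Plin5 (10.4 TPM) in PTS2, and Plin1, the form of fat cells, was at most 0.05 TPM. Plin3 was lower in PTS2 than in whole kidney (60.3 TPM), by a log2 difference of -2.32 ± 0.21 (SE; adjusted p = 1.48e-07 in limma), and Plin5 was higher (0.71 ± 0.16, adjusted p = 0.00150 in limma). Plin5, which ties droplets to mitochondria, was lower in m3 than in m2 (-0.50 ± 0.10, adjusted p = 0.0180 in limma), whereas Plin2 was nearly level. With single libraries left out, the limma adjusted p of Plin5 ran from 0.0132 to 0.0641. Its call did not hold in 7 of these 12 fits.

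Among thioesterases, Acot4, a peroxisomal form, averaged 88.6 TPM in PTS2 and was higher than in whole kidney (0.50 ± 0.13, adjusted p = 0.00414 in limma). Vnn3, the paralog of Vnn1, was at most 0.02 TPM. Pank1, which starts coenzyme A synthesis from the pantothenate that vanin releases, was at 328 TPM in the tubules and 198 TPM in kidney (0.70 ± 0.21, adjusted p = 0.0111 in limma), but among the sets it did not follow Vnn1: its mean was lowest in m1 (243 TPM), then m2 (341 TPM) and highest in m3 (399 TPM), and it was higher in m3 than in m1 by 0.73 ± 0.12 on the log2 scale (SE; adjusted p = 0.00479 in limma). The angiopoietin-like relative Angptl2 was under 1 TPM on average in PTS2 and at 17.9 TPM in whole kidney. Of 39 family genes tested, 7 were higher and 15 lower in PTS2 than in whole kidney, against 8.69% and 38.2% of all genes. With median-of-ratios rescaling 14 were higher and 9 lower, and with quantile normalization 11 and 8. The median log2 difference of the family genes was then 0.15 against -0.03 for all genes, and 0.15 against 0.16. The shares of all genes given here and for the lists below are from the fit without rescaling and moved with the scaling too.

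Partners of PPARA were examined next. Of 19 nuclear receptors and cofactors, 16 were tested, and 10 were lower and 0 higher in PTS2 than in whole kidney (limma, 11 at an unadjusted p under 0.05), with a median log2 difference of -0.57 against -0.27 for all genes, of which 38.2% were lower and 8.69% higher. The count depended on scaling: 8 were lower and 0 higher with median-of-ratios rescaling, and 5 lower and 1 higher with quantile normalization, where the median was -0.01 against 0.16 for all genes. Ppargc1a, a coactivator of PPARA and of mitochondrial genes, was at 10.4 ± 2.76 TPM in the tubules and 50.5 ± 1.63 TPM in kidney, a log2 difference of -2.22 ± 0.23 (SE; adjusted p = 5.07e-07 in limma). The cofactor Nrip1 (-0.91) and the heterodimer partners Rxrb (-0.74) and Rxra (-0.63) were also lower, although the call for Nrip1 was lost with quantile normalization (-0.53). Of the other PPARs, Pparg averaged 1.73 TPM and Ppard 0.613 TPM in PTS2, far under the 37.02 TPM of Ppara. Among the sets, 0 of the 16 partners were called in limma in any of the 3 comparisons, with 0 at an unadjusted p under 0.05 in m2 against m1, 2 in m3 against m1 and 1 in m3 against m2. Rxra, for instance, had a mean of 32.7 TPM in m1 with 31.7 and 31.5 TPM in m2 and m3. Of all genes, 0.239% to 2.23% were called per direction in these comparisons, so 0 of 16 does not set the partners apart.

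The genes usually named as PPARA targets in rodent liver, with the members left out, were taken as a list of 65, of which 64 were in the table. This list was drawn up with earlier results of these libraries known, so its counts are not independent evidence of a direction. In m3 against m2, 55 were tested, 18 were lower and 0 higher (0.805% and 1.17% of all genes), and the median log2 difference was -0.22 against 0.04 for all genes. The count of 18 fell below 12 when single libraries were left out: it was 9 without m2 replicate 2, 10 without m2 replicate 3, 8 without m2 replicate 4, 7 without m3 replicate 1, 9 without m3 replicate 2 and 10 without m3 replicate 3.

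Among the genes with the largest differences were Cyp4a14 and Cyp4a10, fatty acid omega-hydroxylases, and Mgll, which splits monoglycerides. Cyp4a14 was at 76.57, 42.12, 37.08 and 40.94 TPM in m1, at 222.88, 253.95, 153.41 and 216.52 TPM in m2, and at 12.94, 11.61, 12.76 and 11.10 TPM in m3. The sets did not overlap, and Cyp4a14 fell by 4.00 ± 0.20 on the log2 scale from m2 to m3 (SE; adjusted p = 2.95e-07 in limma). Mgll fell by 1.61 and Cyp4a10 by 1.49 on the log2 scale from m2 to m3. Cpt1a, which admits acyl groups to mitochondria and is named here after its value was seen, did not pass the test, with a log2 difference of -0.06 ± 0.14 (SE).

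**Figure D3:**
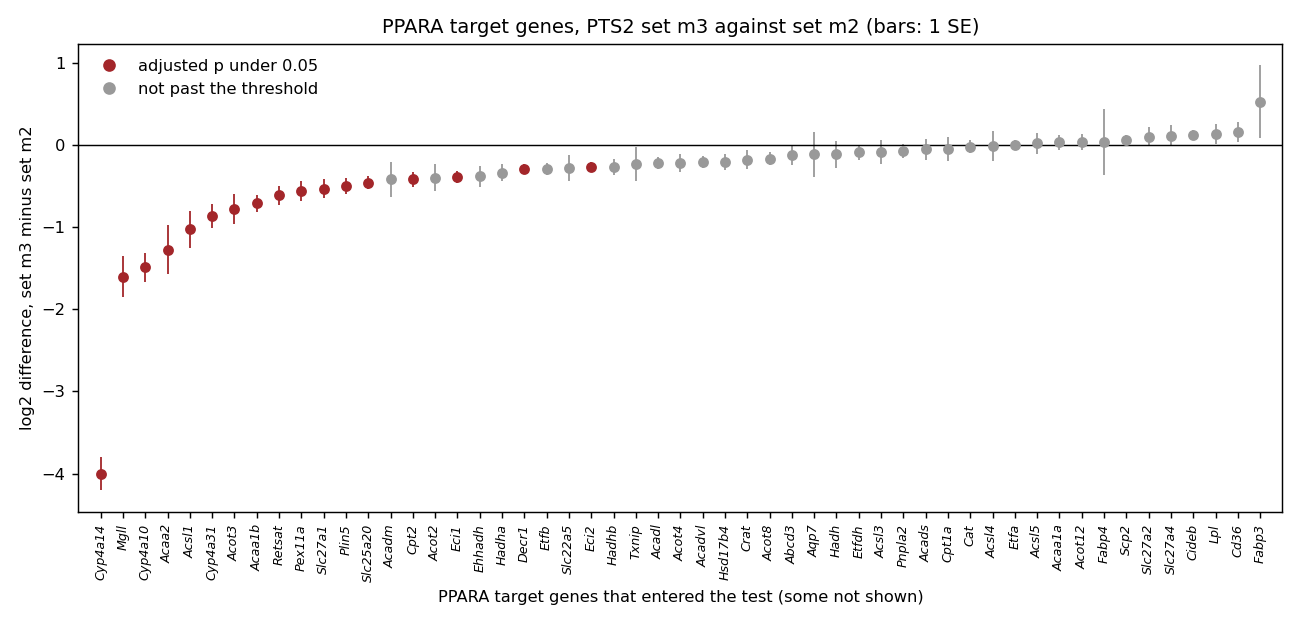
Log2 difference in log2(TPM + 1) between PTS2 sets m3 and m2 (n = 4 each), with bars of 1 SE, for PPARA target genes that entered the limma fit, with the members and a few genes not reported here left out; red marks an adjusted p under 0.05. The genes shown that passed the threshold all lie below 0, with Cyp4a14 lowest, and many others lie close to 0.

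In m2 against m1, 4 of the 55 targets were higher (among them Cyp4a14 by 2.12, Cyp4a10 by 1.13 and Slc27a1, a fatty acid transporter, by 0.81 on the log2 scale) and 0 lower, against 0.301% and 0.239% of all genes. In m3 against m1, 5 were lower, with Cyp4a14 (-1.88) and the acyl-CoA synthetase Acsl1 (-1.34) in front, and 0 higher, against 0.938% lower and 2.23% higher of all genes. Without m1 replicate 1 the first count rose to 12, and without m3 replicate 1 or m3 replicate 3 the second was 3.

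Against whole kidney, 29 of 56 targets tested were higher in PTS2 and 12 lower, against 8.69% and 38.2% of all genes. The median log2 difference was 0.34 where that of all genes was -0.27. The higher ones included Cyp4a10 (1.65), its close relative Cyp4a31 (1.31), the medium-chain dehydrogenase Acadm (1.10) and Ehhadh (1.07), an enzyme of peroxisomal oxidation. Among the lower ones were Fabp3 (-4.62), Cpt1b (-3.84), Fabp4 (-2.96) and the thiolase Acaa2 (-2.60). Fabp4 is known from fat cells and endothelium and stood in the adipocyte list given above. Fabp3 and Cpt1b were highest among the tubules in m3 replicate 3, the library with thick ascending limb markers, where Fabp3 was at 25.42 TPM (3.25 to 7.15 TPM in the other tubules) and Cpt1b at 5.15 TPM (at most 0.37 TPM). The part of that signal in their levels was not tested. Cyp4a10, Cyp4a14, Cyp4a31 and Cyp4a32 belong to one gene family, and whether reads were split between them was not tested. The target counts, 29 higher and 12 lower, became 35 and 8 with median-of-ratios rescaling and 29 and 9 with quantile normalization. The median of the targets was then 0.61 against -0.03 for all genes, and 0.36 against 0.16.

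A list of 36 genes that fasting, glucocorticoids, glucagon or low insulin are known to raise had calls in both directions among the sets. In m3 against m2, 2 of 30 tested were higher and 5 lower, against 1.17% and 0.805% of all genes. Against whole kidney, 2 of 31 were higher in PTS2 and 16 lower, against 8.69% and 38.2% of all genes. With median-of-ratios rescaling these were 4 and 11, and with quantile normalization 3 and 9. The median log2 difference of the list was then -0.34 against -0.03 for all genes, and -0.17 against 0.16. Sgk1, a kinase that glucocorticoids and aldosterone raise, averaged 178 ± 39.7 TPM in m1, 93.05 ± 11.8 TPM in m2 but 16.7 ± 2.47 TPM in m3 (SD, n = 4 each), and Igfbp1, an insulin-repressed binding protein, at 8.68 ± 0.63, 11.98 ± 0.218 and 2.30 ± 0.503 TPM. Irs2, an adaptor of the insulin receptor that fasting is known to raise in liver, ran the other way, at 4.25 ± 1.51, 11.3 ± 1.96 and 22.02 ± 2.13 TPM, and was higher in m3 than in m1 by 2.17 ± 0.18 on the log2 scale (SE; adjusted p = 3.98e-05 in limma). Gadd45g was higher in m3 than in m2 by 1.58, and Cited2, the glucocorticoid-induced Tsc22d3 and the repressor Bcl6 were lower by -1.54, -0.80 and -0.79. Sgk1 and Bcl6 ranked m1 over m2 over m3, an order that none of the 5 moving members had.

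Genes of the fed state did not pass the test among the sets, where 0.239% to 2.23% of all genes were called per direction and comparison. With shares this low, 0 called genes do not set the list apart. Of 20 lipogenic and glycolytic genes, 16 were tested and 0 were called in limma in each of the 3 comparisons, with 3, 4 and 1 at an unadjusted p under 0.05 in m2 against m1, m3 against m1 and m3 against m2. Of 9 genes that make, use or carry ketone bodies, 4 were higher in PTS2 than in whole kidney and 2 lower. Bdh1 (0.96) and Acat1 (0.71) were among the higher ones, and the 2 lower ones, not reported here, had larger log2 differences. Of all genes, 8.69% were higher and 38.2% lower.

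The kidney libraries showed the same genes apart from each other, again without a replicate for each. Kidney 1, with the highest Angptl4, held Sgk1 at 176.19 TPM, Bcl6 at 17.77 TPM and Irs2 at 6.53 TPM. Kidney 2, with the lowest Angptl4, held Sgk1 at 68.22 TPM, Bcl6 at 2.08 TPM and Irs2 at 19.70 TPM. Kidney 3 held the most Irs2, 36.08 TPM, and the most Cyp4a14, 32.97 TPM against 23.90 TPM in kidney 1 and 7.11 TPM in kidney 2.

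For each member, the genes whose profile over the 12 tubules was most like its own were found by Pearson r of log2(TPM + 1) among 11300 genes. These values describe 12 libraries that fall into 3 sets and share their scaling. Angptl4 was closest to Pnrc1 (r = 0.975), Igfbp1 (0.973) and Vnn1 (0.962), Vnn1 to Cyp4a14 (0.974), Pnrc1 (0.969) and Cited2 (0.962), and Ucp2 to Mgll (0.974), Shisa4 (0.961) and Pnrc1 (0.953). Pnrc1, a coregulator of nuclear receptors, was thus among the 3 nearest genes of 3 members. Pdk4 was closest to Cyp4a10 (0.946), the carnitine carrier Slc25a20 (0.943) and Cyp4a31 (0.941), all from the PPARA target list. Acot1 was closest to Loxl4 (0.940), Fga (0.939) and Adtrp (0.936). Ppara was closest to Pi4k2b (0.948), Dlst (0.944) and Kidins220 (0.926), and Plin2 to Pkn2 (0.942), A1cf (0.904) and Gm6055 (0.893). For Ppara, Plin2 and Acot1, no other member and no listed PPARA target was among these nearest genes.

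Levels were also compared by replicate number. In each set the library numbered 4 was the highest for Ppara, at 50.24 TPM in m1, 43.92 TPM in m2 with 46.78 TPM in m3, and the lowest for Acot1, at 125.03, 192.26 and 92.08 TPM. An F test over the 4 numbers, with the set as a covariate, gave Ppara a spread of 0.67 between the highest and lowest number on the log2 scale (limma adjusted p = 0.0589) and Acot1 a spread of 0.49 (limma adjusted p = 0.0505), so neither passed the threshold. The members were chosen by their levels in these libraries, so their p-values over the numbers are a description as well. The outcome depended on the setting. With genes under a mean of 10 TPM left out, the limma adjusted p was 0.0289 for Ppara and 0.0228 for Acot1. With no filter on low values it was 0.250 and 0.230, and with no set term 0.201 and 0.603. With median-of-ratios rescaling the limma adjusted p was 0.0376 for Ppara and 0.0708 for Acot1. With quantile normalization it was 0.0431 and 0.0519, and with a pseudocount of 0.1 TPM 0.0588 and 0.0488. With single libraries left out it ran from 0.0162 to 0.180 for Ppara and from 0.0151 to 0.188 for Acot1 in limma, and it was under 0.05 for Ppara without m2 replicate 2 and for Acot1 without m2 replicate 2 or m2 replicate 4. Of the other members the limma adjusted p was 0.165 for Ucp2, 0.196 for Vnn1, 0.348 for Angptl4, 0.566 for Pdk4 and 0.694 for Plin2. Of all 11300 genes, 2.71% passed this test. The labels do not say what the numbers mark.

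**Figure D4:**
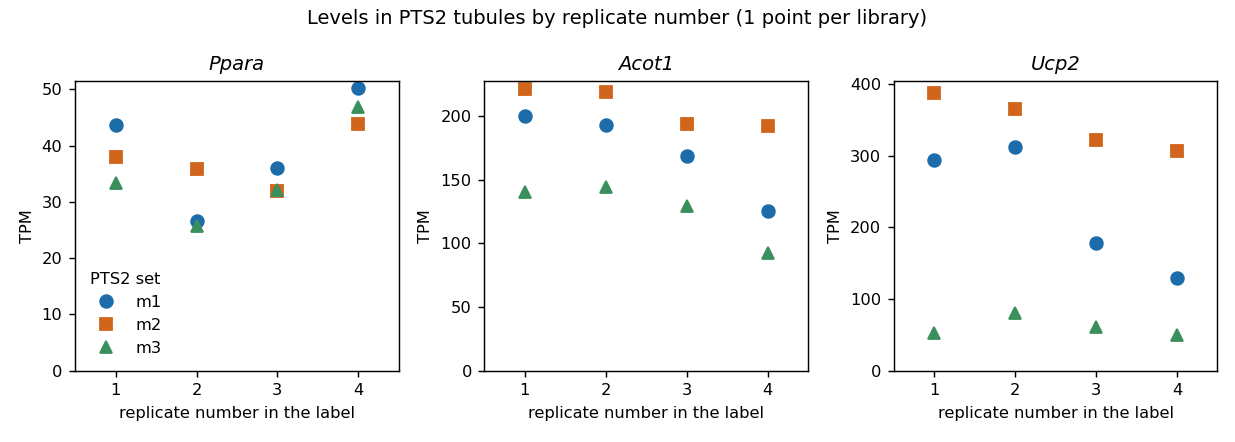
TPM of Ppara, Acot1 and Ucp2 (linear axes from 0) in the 12 PTS2 libraries by the replicate number in the label, 1 point per library, with colour and shape for the sets m1, m2 and m3. Ppara is highest and Acot1 lowest at number 4 in each set, and the sets are apart for Ucp2 at every number.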

How the data were processed

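RNA was polyA-selected and amplified with an ultra-low-input cDNA kit, per the labels' protocols, and the submitters' processing notes name STAR 2.5.1b, RSEM 1.2.31 and GRCm38.p5. The authors deposited 1 table of TPM values for 15 libraries. That the unit is TPM was read from the column sums. The authors' 4 mean and error columns were not used.

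Members and gene lists were chosen with earlier results of these data known. Named genes were the members, their families and PPARA partners as levels, up to 4 called genes per list, direction and comparison with the largest log2 differences, and the 3 genes most like each member. A few genes picked this way are left out of the text and figures. Tests used limma 3.58.1 in R 4.3.3 (lmFit, eBayes with trend) on log2(TPM + 1), for genes whose mean reached 1 TPM, with Benjamini-Hochberg adjustment over all genes and a threshold of 0.05. PTS2 against whole kidney used the group as a correlated block (correlation 0.0957). Scripts were tested on simulated data. Gene positions came from GENCODE M21, which held 46488 (98.8%) of the gene IDs. Alternatives were another pseudocount, filter, scaling or block and each library left out.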

Additional observations from a re-analysis of the deposited data

Results flagged for a closer look

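In sets of 4, a library was singled out where its gap to the next, as a share of the set's range, exceeded Dixon's critical value. This occurred in 10 of 96 tests, where chance gives about 4.8. Of the members, Plin2 was concerned once, at 153.19 TPM in m3 replicate 4 (next 145.38 TPM), which is within the range of the other sets. Of genes around the members, m1 replicate 1 was high for Cyp4a14 at 76.57 TPM (next 42.12) and Acot3 at 11.05 TPM (next 8.2). G6pc, the last enzyme of glucose release, was high in m1 replicate 4 at 636.62 TPM (next 399.95) and in m3 replicate 4 at 255.67 TPM (next 121.2). Replicate 3 of m3 was low for Pank1 at 379.41 TPM (next 403.94) and high for Slc27a1 at 17.81 TPM (next 14.86), and Txnip was at 41.31 TPM in m2 replicate 4 (next 30.5). The thick ascending limb marker sum was 1440.62 TPM in m3 replicate 3 (next 17.1) and 55.83 TPM in m1 replicate 4 (next 10.61).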

How the results depend on the processing

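The depth of the libraries is unknown, which limits what can be said of low genes. Of the recomputed differences of the members, 651 were counted as unchanged. Those between the tubule sets carry no call, so for them this refers to the size of the difference alone. Of the rest, 8 gained a call (Ppara and Acot1 over the replicate numbers, 4 each), 5 lost one and 1 moved. Of 539 recomputed log2 differences between groups, 13 changed sign, none of them of a member called against whole kidney: Pdk4 against whole kidney 8 times (up to 0.56 with quantile normalization, 0.21 with median-of-ratios rescaling), Ppara 3 times (up to 0.10) and Plin2 2 times (up to 0.01) in m2 against m1. The 5 lost calls were those of Ppara and Angptl4 against whole kidney given above, and the value that moved was Plin2 in m3 against m1, at -0.17 with median-of-ratios rescaling.

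Without a filter on low values, the genes called were 9582 in PTS2 against whole kidney (5645 with the filter), 196 over the sets (341), 178 in m3 against m1 (358) and 111 in m3 against m2 (223), and 10 targets were lower in m3 than in m2 (18). At a mean of at least 10 TPM, 2725 were called against whole kidney. In m2 against m1 (61), median-of-ratios rescaling gave 105 and quantile normalization 107. The test over replicate numbers (306) called 0 genes without the filter and 0 without the set term in limma, with 2871 and 1419 at an unadjusted p under 0.05. Of calls against whole kidney 18.5% were higher in PTS2, against 46.9% with median-of-ratios rescaling and 64.3% with quantile normalization. In m3 against m1 70.4% were higher, against 53.6% and 52.8%. With single libraries left out the counts ran from 4469 to 6433 against whole kidney, 197 to 563 over the sets, 37 to 135 in m2 against m1, 160 to 771 in m3 against m1, 119 to 313 in m3 against m2, 75 to 507 over numbers, and 7 to 18 for targets lower in m3 than in m2.

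Same-numbered libraries of different sets deviated together on average (mean r 0.138 over 12 pairs, 7 of them over 0.1), PTS2 and kidney libraries did not (mean r -0.01 over 9 pairs), and 9 of 12 tubules were most like their own number. Among the sets, same-numbered pairs ran from 0.0209 to 0.281 and the 36 other-numbered pairs from -0.237 to 0.146, with a mean of -0.05. A chance level for the 9 of 12 was not computed. Whether the numbers mark a shared source was not tested and the labels name none, so a block for the number was kept as an alternative. With a block for the replicate number, 888 genes were called over the sets (340 of the 341 among them), 307 in m2 against m1, 838 in m3 against m1, 416 in m3 against m2 and 5646 against whole kidney. The cause of these shifts was not tested.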
